A study of Mus musculus with 2 samples.

Results

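The 10 genes described here make up the de novo lipogenesis program, the pathway by which adipocytes and hepatocytes build fatty acids from carbohydrate carbon. They were followed in single-nucleus RNA-Seq of inguinal white adipose tissue (iWAT) as a fixed list of 10 of the 31053 genes in each matrix, and all 10 passed the filter of at least 50 summed counts in adipocytes. The study deleted the long noncoding RNA Lexis in adipocytes. Lexis-AdKO mice carried Lexis fl/fl with Adipoq-cre, a Cre driven by the promoter of adiponectin and thus active in adipocytes, and Lexis-AdWT mice were Lexis fl/fl littermates without Cre. All mice were male, on a C57BL/6 background and fed Western diet, and the iWAT of 3 mice per genotype was pooled, with the lymph node taken out, into 1 library.

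Acly cleaves cytosolic citrate to acetyl-CoA, Acss2 makes acetyl-CoA from acetate, and Acaca carboxylates acetyl-CoA to malonyl-CoA. Fasn joins these units to palmitate, Elovl6 lengthens palmitate to stearate, and Scd1 and Scd2 insert the double bond of oleate and palmitoleate. Me1 supplies NADPH for the synthesis. Srebf1 and Mlxipl encode SREBP-1 and ChREBP, the transcription factors that link the pathway to insulin and to glucose, and both are known to act on promoters of the enzymes.

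The 2 libraries differed in ways that bear on every value below. The deposited files of the library that GEO labels WT carry KO in their names and those of the library it labels KO carry WT, Lexis itself has no row in either matrix, and the genotype of each library could therefore not be checked on the targeted gene. The sample labels were followed, and the libraries are called WT-labelled and KO-labelled throughout. Each matrix held 5000 barcodes, with 9376351 unique molecular identifiers (UMIs, counted mRNA molecules) in the WT-labelled library and 19655049 in the KO-labelled library, and they shared 12 barcode sequences. After filtering, 3503 and 2852 nuclei remained, with a median of 1195 and 3879 UMIs. Nuclei with lymphocyte markers made up 60.4% of the WT-labelled library and 3.86% of the KO-labelled library.

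Adipocytes numbered 418 nuclei in the WT-labelled library, all in cluster 4, and 894 in the KO-labelled library, of which 889 lay in cluster 1 and 5 in cluster 4. The class met its name in both libraries. All 10 adipocyte markers (Adipoq, Plin1, Plin4, Cidec, Pparg, Lipe, Adrb3, Acvr1c, Lep and Pde3b) were detected, and together they came to 8693 CPM (counts of a gene scaled to a total of 1000000 UMIs in the class) in the WT-labelled library and 11417 CPM in the KO-labelled library. The 13 lymphocyte markers summed to 346 CPM in adipocytes of the WT-labelled library and 27.5 CPM in those of the KO-labelled library, and the 10 markers of adipose stem and progenitor cells (ASPCs) to 1187 and 495 CPM. Subtracting the lymphocyte UMIs per nucleus of each library moved the adipocyte log2 ratio of Fasn, the KO- over the WT-labelled library, from -1.65 to -1.89, and the number of members at or below a ratio of 0.5 from 2 to 5. The share of all genes at or below 0.5, 17.6% before the subtraction, was not counted after it. No such subtraction was made for ASPC transcripts. With 1 library per genotype there is no replicate spread and no test between genotypes. The 95% intervals given below cover counting error only. They are exact, except those of differences, which combine the limits of the 2 libraries.

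To show the control regions of members whose transcripts shared nuclei and of the regulator with the greatest adipocyte excess, the 250 bases before the start are printed for Acly, Elovl6, Acss2 and Mlxipl. They are from RefSeq on GRCm38.p6, the assembly also known as mm10, the build that the submitters' processing notes name. Capitals mark matches, on either strand, to any of 4 letter strings. The sterol response element was searched as TCACNCCAC and the E-box as CACGTG. The other strings were the CCAAT box, searched by these 5 letters, and the GC box, searched as GGGCGG.
Acly (chr11:100528001-100528250, minus strand): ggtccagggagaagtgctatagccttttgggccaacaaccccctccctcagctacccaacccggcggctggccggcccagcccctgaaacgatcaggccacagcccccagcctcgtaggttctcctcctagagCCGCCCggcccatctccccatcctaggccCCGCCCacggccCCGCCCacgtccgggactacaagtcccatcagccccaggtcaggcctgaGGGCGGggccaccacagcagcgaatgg
Elovl6 (chr3:129532136-129532385, plus strand): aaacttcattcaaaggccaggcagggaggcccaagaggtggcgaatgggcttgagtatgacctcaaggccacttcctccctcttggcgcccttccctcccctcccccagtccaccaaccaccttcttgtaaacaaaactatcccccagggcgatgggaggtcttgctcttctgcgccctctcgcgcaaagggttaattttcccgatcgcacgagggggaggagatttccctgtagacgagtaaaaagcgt
Acss2 (chr2:155517793-155518042, plus strand): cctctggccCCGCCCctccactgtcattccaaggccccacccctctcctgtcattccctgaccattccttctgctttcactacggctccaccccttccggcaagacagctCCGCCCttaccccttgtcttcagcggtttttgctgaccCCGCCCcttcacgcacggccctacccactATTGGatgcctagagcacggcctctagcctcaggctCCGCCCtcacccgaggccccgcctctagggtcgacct
Mlxipl (chr5:135089640-135089889, plus strand): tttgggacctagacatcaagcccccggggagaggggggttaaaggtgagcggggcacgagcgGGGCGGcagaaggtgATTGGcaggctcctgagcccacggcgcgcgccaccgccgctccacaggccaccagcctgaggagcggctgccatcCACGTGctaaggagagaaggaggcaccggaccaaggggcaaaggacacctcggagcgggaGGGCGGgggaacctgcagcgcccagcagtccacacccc

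The table of promoters held 12 starts of 8 members, Scd1 and Scd2 having no entry, and 10 of these starts held at least 1 of the letter strings. The share of all windows with at least 1 of them was not counted, only that of each string. CCAAT was present at 6 of 12 starts and in 33.8% of all 32851 promoter windows, and GGGCGG at 6 of 12 starts and in 32.7% of all windows. CACGTG was found at 1 start, that of Mlxipl printed above, and in 6.02% of all windows. TCACNCCAC was found at 1 start, an internal start of Mlxipl, and in 1.05% of all windows. The windows of Acly and Acss2 held 4 GC boxes each, and that of Elovl6 held none of the strings. A match here is a description of the letters and was not tested as a binding site.

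In which cells of iWAT the program was expressed was addressed first. In both libraries, 10 of 10 members had a higher CPM in adipocytes than in the other named classes pooled, against 28.6% of all 10676 genes in the WT-labelled library and 34.4% of 13393 genes in the KO-labelled library. The excess was at least 2-fold for 8 members in the WT-labelled library (10.3% of all genes) and for 7 in the KO-labelled library (13.6% of all genes). The size of the excess ranged from 1.77 to 49.3 times in the WT-labelled library and from 1.44 to 24.2 times in the KO-labelled library. A small group of adipocyte nuclei in the WT-labelled library carried much of several members. When the adipocytes of each library were clustered on genes other than the members, subcluster 3 of the WT-labelled library took 44 of the 418 nuclei and held 142 of 215 Elovl6 counts (66.0%), 208 of 346 of Acly (60.1%), 555 of 1112 of Acaca (49.9%) and 604 of 1553 of Acss2 (38.9%), against 12.1% of those of Scd1. The main results that rest on these nuclei are given with and without them, a setting chosen after the data were seen. Without them 9 of 10 members were higher in adipocytes of the WT-labelled library, and 5 rather than 8 reached 2-fold.

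Mlxipl, the carbohydrate-sensing factor ChREBP, had the largest excess. In the WT-labelled library it reached 3.73 UMIs per adipocyte nucleus (798 CPM, from 1559 counts) against 0.0154 to 0.064 per nucleus in the 4 other classes of at least 50 nuclei, and its level was 49.3 times that of the pooled other classes (interval 38.6 to 63.9). In the KO-labelled library it reached 3.90 per adipocyte nucleus (403 CPM, from 3486 counts) and 24.2 times the pooled others (20.1 to 29.3). No UMI was seen in 110 lymphocyte nuclei of the KO-labelled library, a count of 0 that allows a level of up to 12.5 CPM. The exception was skeletal myocytes, present in the KO-labelled library only, where 37 of 52 nuclei held Mlxipl and the mean was 1.37 UMIs per nucleus (1.07 to 1.72), or 268 CPM. These myocyte nuclei held the 10 adipocyte markers at 654 CPM, below the 11417 CPM of adipocytes, and the 9 myocyte markers at 42652 CPM.

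Acss2 and Acaca, which prepare the 2-carbon units, were also strongly adipocyte-biased. Acss2 was 10.5 times (9.33 to 11.9) and 14.3 times (12.7 to 16.1) higher in adipocytes than in the pooled others in the WT- and KO-labelled libraries, and Acaca 8.63 times (7.55 to 9.88) and 6.80 times (6.30 to 7.34). Fasn followed with 6.13 times (5.42 to 6.94) and 3.02 times (2.69 to 3.39), and Srebf1 with 4.26 times (3.59 to 5.07) and 3.48 times (2.99 to 4.05). For Me1, the source of NADPH, the excess was 2.25 times (1.94 to 2.60) in the WT-labelled library and 6.01 times (5.43 to 6.65) in the KO-labelled library. Acly stood at 3.35 times (2.82 to 3.98) and 1.90 times (1.68 to 2.16). With subcluster 3 of the WT-labelled library left out, the excess of Acly there was 1.50 times (1.20 to 1.87), that of Acaca 4.86 times (4.199 to 5.64) and that of Me1 1.75 times (1.49 to 2.05).

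Scd1 had the smallest adipocyte excess of the members in both libraries when all adipocytes were counted, while without subcluster 3 of the WT-labelled library Elovl6, Acly, Scd2 and Me1 were at or below its excess of 1.75 there. It gave the most UMIs of the 10 members in adipocytes, a comparison not corrected for gene length, with 9.02 UMIs per nucleus (1930 CPM) in the WT-labelled library and 14.01 per nucleus (1450 CPM) in the KO-labelled library, and its excess was 1.77 times (1.69 to 1.85) and 1.44 times (1.40 to 1.49). Outside adipocytes its level per nucleus was nearly the same whatever the class, at 1.49 to 1.63 UMIs in the WT-labelled library and 2.94 to 3.92 in the KO-labelled library, while scaled to total UMIs it ran from 613 to 1316 CPM and from 578 to 1951 CPM. Barcodes with fewer than 500 genes, which failed the filter, held Scd1 at 1264 CPM in the WT-labelled library and 5544 CPM in the KO-labelled library, the latter above the 1450 CPM of adipocyte nuclei. Whether the Scd1 UMIs of the other classes came from those cells was not tested. Scd2, an isoform also abundant in brain, was 1.88 times (1.68 to 2.10) and 1.95 times (1.77 to 2.15) higher in adipocytes than elsewhere.

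Elovl6 gave the fewest adipocyte UMIs of the members, with 0.514 UMIs per nucleus (110 CPM) in the WT-labelled library and 0.530 (54.8 CPM) in the KO-labelled library, and its excess was 2.38 times (1.95 to 2.91) and 2.32 times (1.94 to 2.79). The former became 0.911 (0.686 to 1.20) without subcluster 3, so that no adipocyte excess was seen in the other 374 nuclei. Per nucleus, Elovl6 differed from Scd1 in the KO-labelled library, where it was uneven among the other classes of at least 50 nuclei. It ran from 0 to 0.2 UMIs there. In the WT-labelled library it ran from 0.0426 to 0.0708 UMIs, but the lowest value rests on 4 counts in 94 endothelial nuclei, too few to call the classes uneven. Scaled to total UMIs, both genes were uneven. In the KO-labelled library the lymphocyte class stood at 92.0 CPM, above adipocytes, and 13 of 59 nuclei of its cluster 14, which Klra8, Klra4 and Ncr1 led, held Elovl6 (22.0%, 12.3 to 34.7; 147 CPM). In the WT-labelled library, 18 of 149 nuclei of the unnamed cluster 11, led by Serpina10 and holding the stromal chemokines Ccl19 and Ccl21a, held it (12.1%, 7.32 to 18.4; 116 CPM). These rest on 21 and 33 counts.

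**Figure D1:**
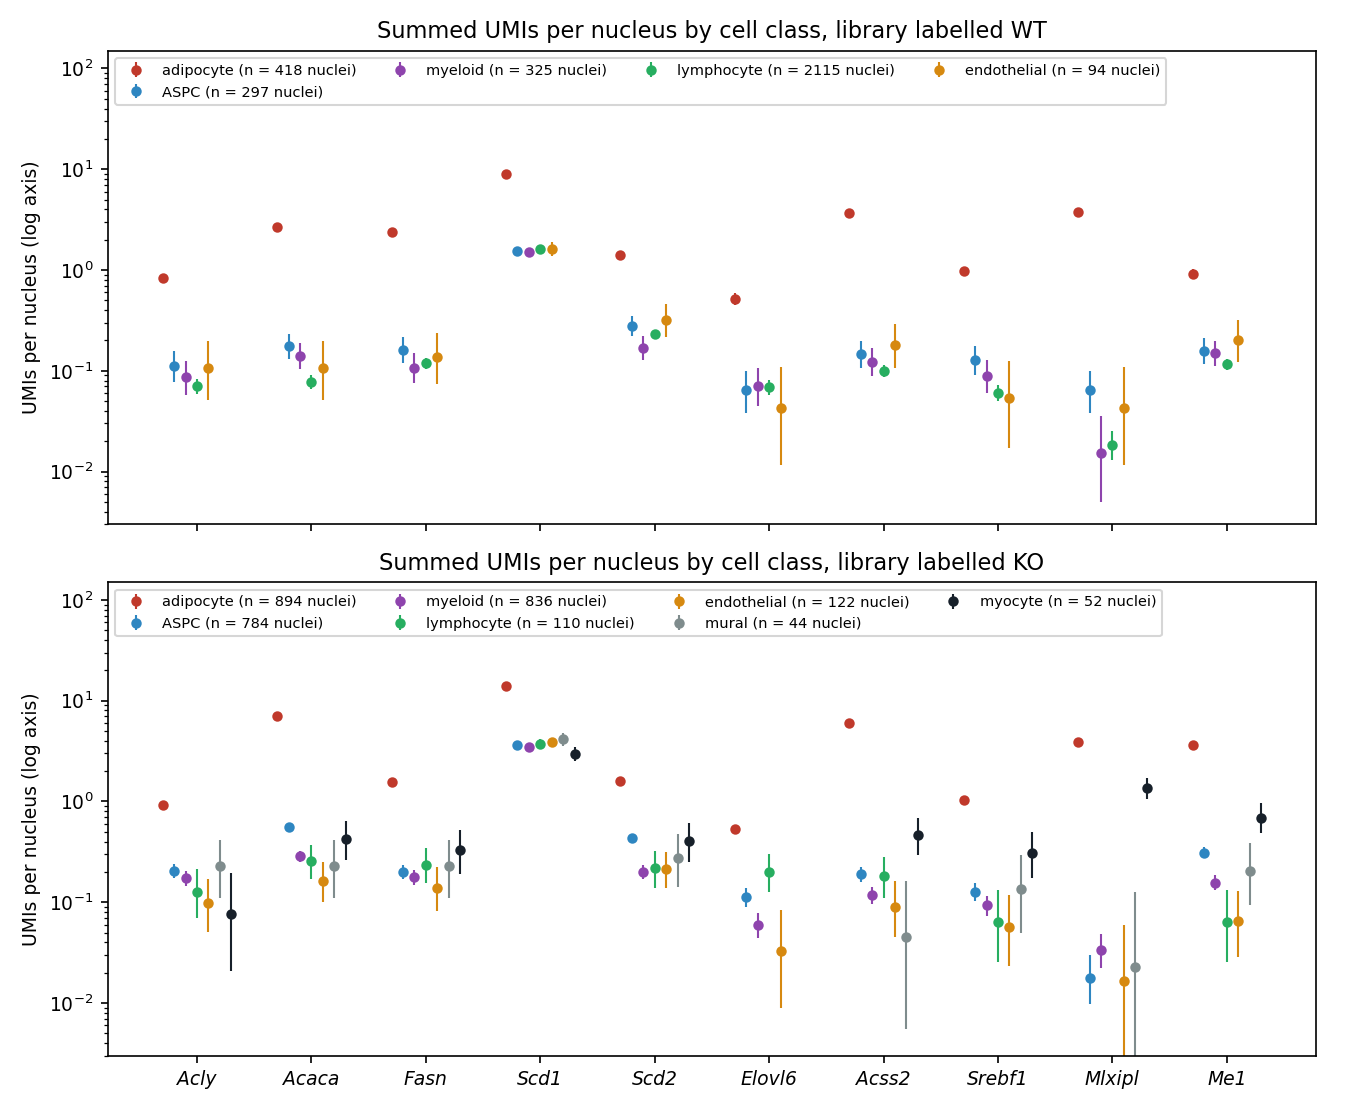
UMIs per nucleus of each member (log axis) by cell class in the WT-labelled library (top) and the KO-labelled library (bottom), with exact 95% Poisson intervals; levels of 0 are not drawn, and the 10 mural nuclei of the WT-labelled library are left out. Adipocytes lie above the other classes for each member, Mlxipl is near 0 outside adipocytes and myocytes, and Scd1 is at a near-equal level in the non-adipocyte classes.

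The comparison between the libraries asked how the program differed between adipocytes labelled KO and those labelled WT. Should the file names be right rather than the labels, each direction below would turn. Scaled to total UMIs, 8 members had a lower level in the KO-labelled library with a counting interval below 1, where 35.1% of all 11351 genes did, and 2 had a higher level with an interval above 1, where 36.3% of genes did. At a fold of 2, 2 members lay at or below 0.5 (17.6% of genes) and 0 at or above 2 (25.9% of genes). The median log2 ratio was -0.89 over the members and -0.01 over all genes. So many genes passed in each direction that single members are best read against this background. When subcluster 3 of the WT-labelled library was left out, 5 members had an interval below 1 (33.9% of 11287 genes) and 4 above 1 (36.5% of genes), and the member median was -0.10 against 0.02 over all genes.

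Fasn, the synthase itself, had the lowest ratio of the members when scaled to total UMIs, though not against genes of like intronic length (below). It stood at 514 CPM (1004 counts in 418 nuclei, 2.40 per nucleus) in the WT-labelled library and at 163 CPM (1411 counts in 894 nuclei, 1.58 per nucleus) in the KO-labelled library, a ratio of 0.318 (0.293 to 0.345) that placed it at percentile 4.50 of all genes. It was the only member whose level per nucleus was also lower in the deeper library labelled KO. The Fasn ratio was 0.422 (0.384 to 0.463), from 387 CPM, without subcluster 3 of the WT-labelled library. Elovl6 had a ratio of 0.498 (0.423 to 0.588), from 110 to 54.8 CPM. Its direction rested on that subcluster, since the other WT-labelled adipocytes held Elovl6 at 42.1 CPM and the ratio against them was 1.30 (1.02 to 1.69).

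Scaled to total UMIs, the 2 transcription factors had nearly the same ratio, though not against genes of like intronic length (below). Mlxipl stood at 798 CPM and 403 CPM, a ratio of 0.505 (0.476 to 0.537), and Srebf1 at 207 CPM and 107 CPM, a ratio of 0.518 (0.460 to 0.584). These ratios were 0.618 (0.578 to 0.661) for Mlxipl and 0.557 (0.491 to 0.633) for Srebf1 without subcluster 3 of the WT-labelled library. Scd2 had a ratio of 0.549 (0.498 to 0.605), from 300 to 164 CPM, and of 0.647 (0.581 to 0.722) without the subcluster. Acly had a ratio of 0.534 (0.470 to 0.607), from 177 to 94.5 CPM, and of 1.19 (0.992 to 1.43) without it, from 79.5 CPM. Scd1 and Acss2 differed least among the lower members, with 0.751 (0.724 to 0.779) for Scd1 and 0.784 (0.741 to 0.830) for Acss2, the latter from 795 to 623 CPM. Without the subcluster Scd1 was at 0.759 (0.731 to 0.789), while Acss2 turned to 1.14 (1.06 to 1.22), from 547 CPM.

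Acaca and Me1 were higher in the KO-labelled library. Acaca stood at 569 CPM and 736 CPM, a ratio of 1.29 (1.21 to 1.38), and Me1 at 197 CPM and 376 CPM, a ratio of 1.91 (1.72 to 2.13). Leaving out subcluster 3 of the WT-labelled library gave 2.29 (2.10 to 2.51) and 2.45 (2.16 to 2.79). Acaca and Me1 have the longest introns of the members, 261791 and 111401 bases in total, and intronic length moved with the ratio across all genes. The median log2 ratio climbed from -0.91 in the 531 genes with the shortest introns to 2.08 in the 532 with the longest. Read against genes of like intronic length, Acaca turned from 0.37 to -1.71 on the log2 scale, Me1 moved from 0.93 to 0.01 and Scd1 from -0.41 to 0.03. Fasn moved from -1.65 to -1.21, Acly from -0.91 to -1.33, Elovl6 from -1.01 to -1.92 and Mlxipl from -0.98 to -1.07 (-1.16 to -0.98). Srebf1 moved from -0.95 to -0.74 (-0.91 to -0.57), apart from Mlxipl. On this reading 5 members lay at a ratio of 0.5 or less, against 12% of all 10632 genes, and 0 at 2 or more, against 18.9%. The member median was then -0.95.

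Scaling by trimmed mean of M-values (TMM), which moved the median of all genes from -0.01 to 0.29 on the log2 scale, shifted each member upward. Then 1 member, Fasn at -1.36, lay at or below a ratio of 0.5 (9.73% of genes) and 1, Me1 at 1.23, at or above 2 (31.3% of genes). Over the alternatives tried, subcluster 3 left out among them, Fasn ranged from -1.91 to -1.21 on the log2 scale, Srebf1 from -1.20 to -0.65, Mlxipl from -1.24 to -0.69 and Scd2 from -1.12 to -0.33. Acly, Elovl6 and Acss2 changed direction without subcluster 3 of the WT-labelled library, to 0.25, 0.38 and 0.19, and lay below 0 under the other alternatives.

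**Figure D2:**
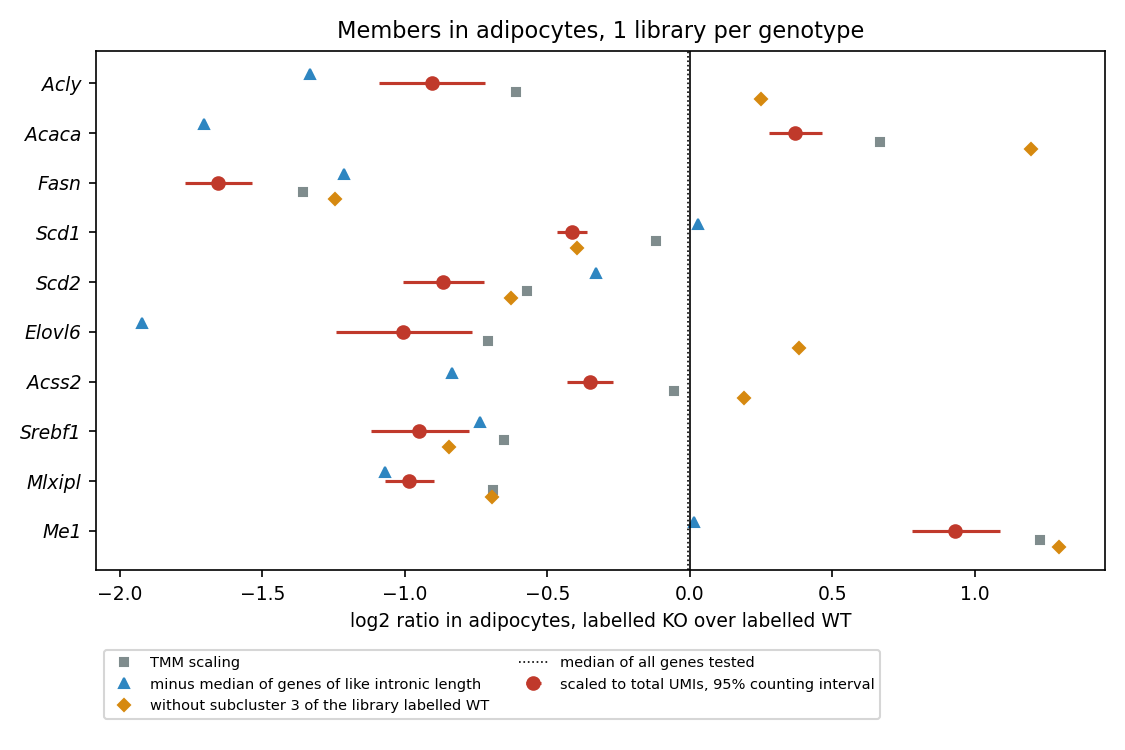
Log2 ratio of each member in adipocytes, the KO-labelled library over the WT-labelled library, scaled to total UMIs with 95% counting intervals (circles), under TMM scaling (squares) after subtraction of the median of genes of like intronic length (triangles), and without subcluster 3 of the WT-labelled library (diamonds); the dotted line is the median of all genes tested. Fasn lies below -1 on each, Elovl6 and Acly lie below 0 on all but the diamonds, at 0.38 and 0.25, and Acaca lies above 0 on all but the triangles, at -1.71.

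Genes of neighbouring steps of lipid metabolism were taken from 6 lists. Of the 11 genes for carbon supply and NADPH, 6 had an interval below 1 and 3 above 1 (35.1% and 36.3% of all genes), with a median log2 ratio of -0.23. Among them Pcx, which carboxylates pyruvate, had a ratio of 3.62 (3.26 to 4.02), while Mpc1 and Mpc2, the mitochondrial pyruvate carrier, stood at 1.57 (1.37 to 1.82) and 0.979 (0.861 to 1.12). Of the 4 partners of acetyl-CoA carboxylase, Acacb, the isoform at mitochondria, had a ratio of 3.62 (3.17 to 4.16) and Thrsp, which favours lipogenesis, 0.835 (0.786 to 0.886). Of the 12 regulators of SREBP and ChREBP, 6 had an interval below 1 and 3 above, with a median log2 ratio of -0.59, and Insig1, which holds SREBP in the endoplasmic reticulum and is itself a target of it, had a ratio of 0.547 (0.506 to 0.591). Of 12 elongation and desaturation partners 8 could be compared, 6 with an interval above 1 and 1 below, with Hacd2 at 7.23 (6.57 to 7.99). Of the 10 triglyceride synthesis genes 5 had an interval above 1 and 4 below, with a median log2 ratio of 0.07. Dgat2, which makes triglyceride from diacylglycerol, had a ratio of 1.25 (1.17 to 1.33), and Agpat2, an earlier acyltransferase, of 0.540 (0.504 to 0.579). Of the 8 lipolysis genes 4 had an interval above 1 and 3 below, with a median of 0.19. G0s2, the inhibitor of adipose triglyceride lipase, had a ratio of 0.596 (0.577 to 0.616), Plin1, which coats the lipid droplet, of 0.906 (0.873 to 0.941), Lipe, hormone-sensitive lipase, of 1.34 (1.26 to 1.41) and Pde3b, a phosphodiesterase that insulin activates, of 4.18 (3.82 to 4.58). Read against genes of like intronic length, 4 of these 13 named genes changed direction on the log2 scale, Thrsp from -0.26 to 0.42, G0s2 from -0.75 to 0.16, Plin1 from -0.14 to 0.30 and Mpc2 from -0.03 to 0.18. Insig1 moved from -0.87 to -0.17, Agpat2 from -0.89 to -0.45, Pcx from 1.85 to 0.94, Acacb from 1.86 to 0.94, Pde3b from 2.06 to 1.15 and Hacd2 from 2.85 to 2.30. Mpc1 went from 0.65 to 1.07, Lipe from 0.42 to 0.68 and Dgat2 from 0.32 to 0.23. On this reading the list medians were -0.02 for carbon supply and NADPH, 0.67 for the carboxylase partners, -0.21 for the regulators, 0.52 for the elongation and desaturation partners, -0.27 for triglyceride synthesis and 0.25 for lipolysis.

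Because the libraries differed in depth, the spread of the members over adipocyte nuclei was described after each nucleus had been thinned at random to 1000 UMIs, which kept 408 nuclei of the WT-labelled library and 889 of the KO-labelled library and left out 10 and 5 shallower nuclei. The median depth before thinning was 3651.5 and 7848.5 UMIs. At equal depth Fasn was found in 31.9% of adipocyte nuclei of the WT-labelled library and 15.3% of those of the KO-labelled library, a difference of -16.6 percentage points (-21.9 to -11.4). Mlxipl was found in 46.8% and 34.1% (difference -12.7, -18.6 to -6.85) and Srebf1 in 23.0% and 11.8% (-11.2, -16.1 to -6.61). Acaca went the other way, with 28.2% and 41.3% (13.1, 7.43 to 18.5), as did Me1 with 13.97% and 22.61% (8.64, 4.01 to 12.96).

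The remaining members were found at shares that differed by less than 10 percentage points. Scd2 was found in 18.9% and 10.6% (-8.30, -12.9 to -4.00), Scd1 in 78.9% and 71.2% (-7.72, -12.7 to -2.51), Acly in 11.3% and 6.64% (-4.64, -8.44 to -1.20) and Elovl6 in 6.37% and 3.15% (-3.22, -6.24 to -0.66). For Acss2 the difference of 0.97 percentage points had an interval of -4.65 to 6.43, and its expected shares over all random draws were 33.83% and 29.99%. Outside subcluster 3, in the WT-labelled library, Elovl6 was found in 3.53% (1.89 to 5.97) of the other 368 nuclei there, Acly in 8.15% (5.57 to 11.4), Fasn in 27.4% (22.9 to 32.3) and Mlxipl in 42.9% (37.8 to 48.2). The Elovl6 share was then near the 3.15% of the KO-labelled library, while Fasn and Mlxipl stayed above theirs. Without thinning, Fasn was found in 59.8% and 54.4% of nuclei and Mlxipl in 80.4% and 84.9%.

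Lymphocytes, a class not known for this program, were set beside these shares at the same 1000 UMIs, from median depths of 1008 and 2079.5 UMIs before thinning. Thinning kept 1087 and 95 lymphocyte nuclei and left out 1028 and 15 shallower ones, so the shares are those of the deeper nuclei. In the WT-labelled library, 8.56% of lymphocyte nuclei held Fasn, 1.38% Mlxipl, 5.06% Acaca, 16.1% Scd2, 5.43% Elovl6 and 65.0% Scd1. In the KO-labelled library, 9.47% held Fasn, 11.6% Acaca, 9.47% Scd2, 8.42% Elovl6 and 80.0% Scd1. Scd1 of the KO-labelled library was found in 71.2% of adipocytes (68.1 to 74.2), a range that overlaps that of lymphocytes (70.5 to 87.5), and in 65.7% of myeloid nuclei and 61.2% of ASPCs. For Elovl6 the lymphocyte share of the KO-labelled library cannot serve as a background, because 59 of the 110 lymphocyte nuclei are those of cluster 14. Elovl6 was found in 1.90% of myeloid nuclei and 2.23% of ASPCs of that library, beside its 3.15% of adipocytes. Scd2 was found in 8.40% of myeloid nuclei and 8.11% of ASPCs of the WT-labelled library, beside its 18.9% of adipocytes.

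**Figure D3:**
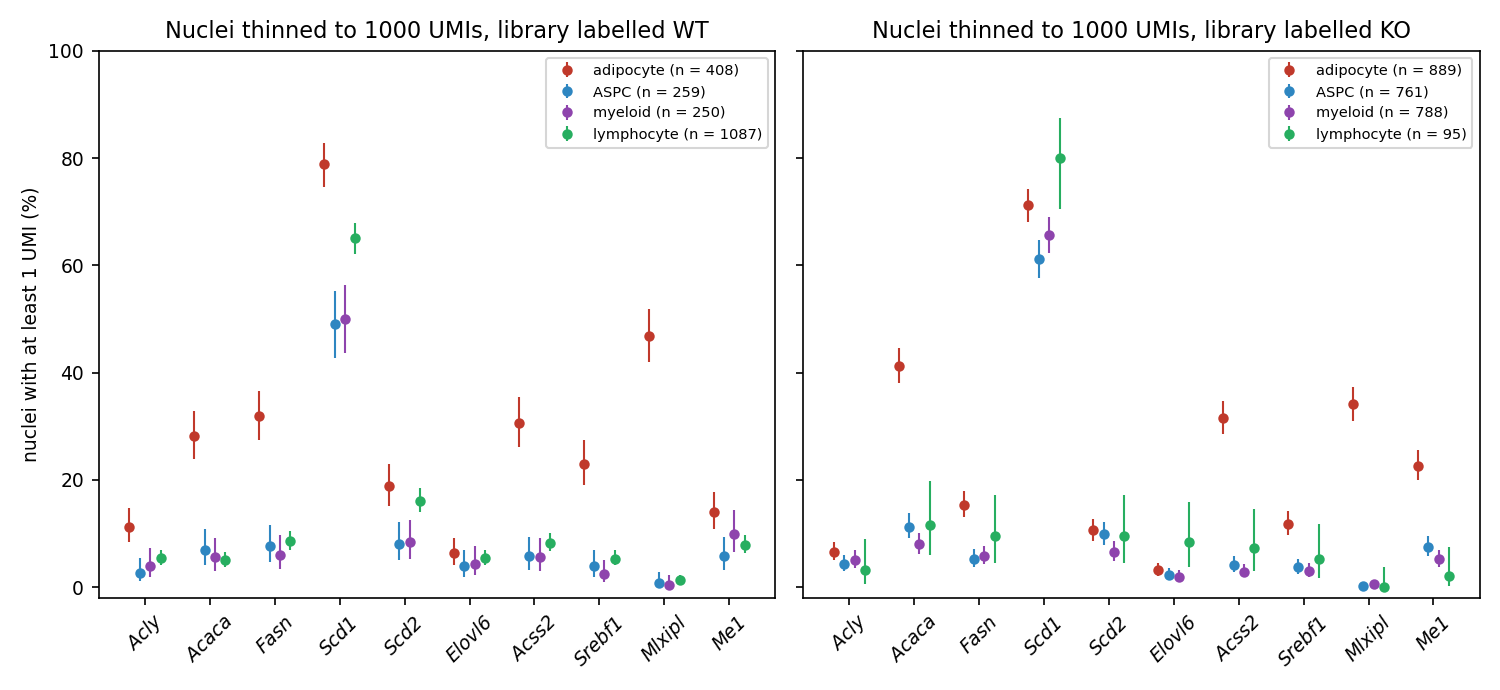
Share of nuclei with at least 1 UMI of each member (%) after thinning to 1000 UMIs, by cell class, in the WT-labelled library (left) and the KO-labelled library (right), with exact 95% binomial intervals. Mlxipl reaches 46.8% and 34.1% of adipocytes against 1.38% or less of the ASPCs, myeloid nuclei and lymphocytes drawn, whereas Scd1 lies between 49.0% and 80.0% in each of the 4 classes drawn.

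Summed over the 10 members, an adipocyte nucleus held a mean of 5.55 UMIs of 1000 in the WT-labelled library and 4.403 in the KO-labelled library, a difference of -1.15 (-1.42 to -0.88). The mean of the WT-labelled library was 4.61 and the difference -0.21 without its subcluster 3. Without Scd1 the means were 3.47 and 2.67. The former was 2.60 once subcluster 3 was left out, which lies within the counting interval of the KO-labelled library (2.56 to 2.78). The means and the difference without subcluster 3 have no interval of their own. The sum without Scd1 was spread far more widely than counting noise, with a variance of 5.10 and 4.31 times the mean, where 1 is expected of random counts and lymphocytes gave 1.12 and 0.979. Most nuclei held few of these molecules. The median was 2 UMIs in both libraries, and 63 of 408 and 160 of 889 nuclei held 0. The 10% of nuclei with most held 39.7% of the UMIs in the WT-labelled library and 38.5% in the KO-labelled library.

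A minority of adipocyte nuclei with at least 8 of these UMIs formed the upper tail, 42 of 408 (10.3%, 7.52 to 13.7) in the WT-labelled library and 57 of 889 (6.41%, 4.89 to 8.23) in the KO-labelled library. Subcluster 3 held 27 of the 42. Without it 15 of 368 nuclei of the WT-labelled library lay in the tail (4.08%, 2.30 to 6.63), a share below that of the KO-labelled library with overlapping intervals, and the variance was 2.92 times the mean. The highest nucleus held 26 UMIs in the WT-labelled library and 39 in the KO-labelled library. The tail had no gap at this limit, with 13 and 16 nuclei at 7 UMIs and 6 and 15 at 8. By member, the variance over the mean was greatest for Acss2 in both libraries (3.41 and 2.52). It was least for Srebf1 in the WT-labelled library (1.07) and for Scd2 in the KO-labelled library (1.03). This measure also depends on the level of a gene, and the mean was 0.654 and 0.588 UMIs for Acss2 against 0.0956 and 0.0529 for Elovl6. It therefore does not rank the members by unevenness alone. At full depth the 3 nuclei with most Elovl6 held 55 of its 215 counts in the WT-labelled library and 139 of 474 in the KO-labelled library. Those with most Acss2 held 241 of 1553 and 351 of 5388.

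**Figure D4:**
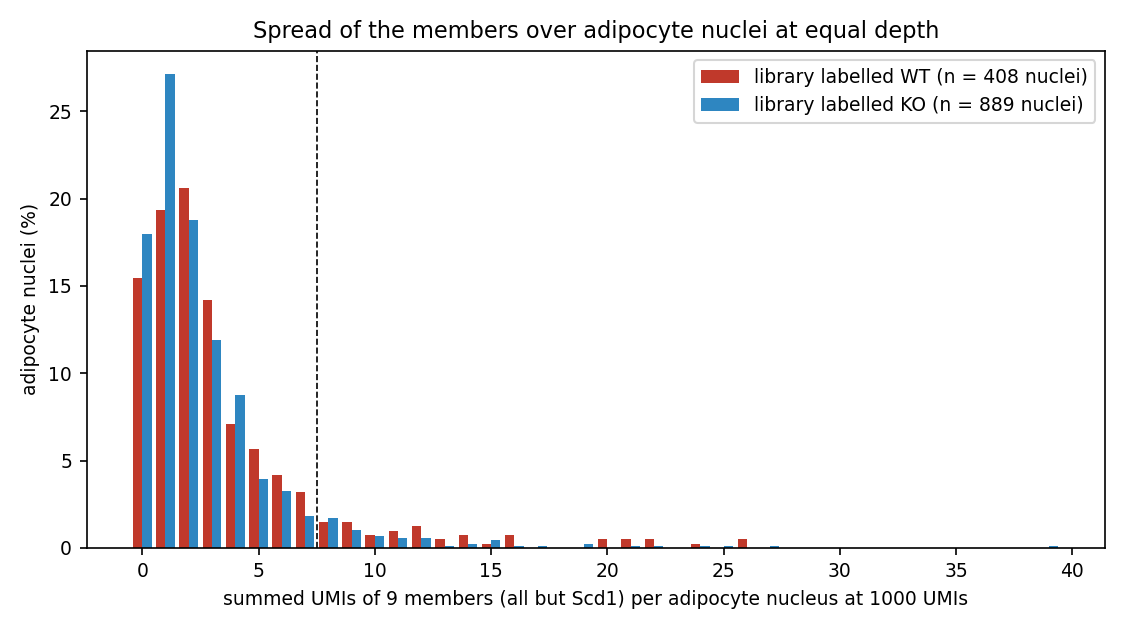
Share of adipocyte nuclei (%) by the summed UMIs of 9 members, all but Scd1, after thinning to 1000 UMIs in the WT-labelled library and the KO-labelled library; the dashed line lies below the limit of 8 UMIs used for the upper tail. The tail past the line holds 10.3% and 6.41% of nuclei and reaches 26 and 39 UMIs; without subcluster 3 the share of the WT-labelled library is 4.08%.

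Whether the members were found in the same nuclei was asked for all 45 pairs. Detection of the second gene was more frequent in nuclei with the first than in those without it for 45 of 45 pairs in the WT-labelled library and 39 of 45 in the KO-labelled library, and the 2 intervals stood apart for 13 pairs in each library. Among all pairs of genes found in shares of adipocyte nuclei between those of the least and the most often found member (2233 genes in the WT-labelled library, 4992 in the KO-labelled library), the second gene was more frequent for 51.4% and 48.2% of pairs, and the intervals stood apart for 0.526% and 0.58%. For 8 pairs they stood apart in both libraries. Acly, Acaca, Fasn, Elovl6 and Acss2 made up most of this. All 10 of their pairs were higher together in both libraries, 8 and 7 with intervals apart, and their median correlation over nuclei was 0.34 in the WT-labelled library and 0.35 in the KO-labelled library, against 0.12 and 0.10 over all 45 pairs of members. Without subcluster 3 of the WT-labelled library, 35 of 45 pairs were higher together there and 1 had intervals apart. Of the 10 pairs of these 5 genes, 8 were then higher together and 0 had intervals apart, with a median correlation of 0.18. In the WT-labelled library the joint detection thus rested largely on the nuclei of subcluster 3. These 5 were singled out after the values of the pairs were seen, and points of a correlation share a library and a depth.

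In the WT-labelled library, 27 of 46 nuclei with Acly also held Fasn (58.7%, 43.2 to 73.0), against 28.5% (23.9 to 33.4) of those without Acly. In the KO-labelled library, 19 of 59 did (32.2%, 20.6 to 45.6), against 14.1% (11.8 to 16.7). Acss2 was found in 54 of 115 nuclei with Acaca in the WT-labelled library (47.0%, 37.6 to 56.5), against 24.2% (19.4 to 29.6) without it, the pair with the highest correlation in that library (0.47). Acly was found with Elovl6 in 9 of 26 nuclei (34.6%, 17.2 to 55.7), against 9.69% (6.91 to 13.1) without it, and in the KO-labelled library in 8 of 28 (28.6%, 13.2 to 48.7), against 5.92% (4.44 to 7.71).

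Scd1 and Srebf1 had lower median correlations with the other members than Acly, Acaca, Fasn, Elovl6 and Acss2 had among themselves. For Scd1 the intervals cannot decide on joint detection. It was found in 78.9% and 71.2% of these nuclei, which leaves its share little room to rise, and it was higher in the upper tail described below. None of the 9 pairs with Scd1 and none of the 9 with Srebf1 had intervals apart in either library, and the median correlation was 0.04 and 0.08 for Scd1 and 0.03 and 0.04 for Srebf1 in the WT- and KO-labelled libraries. Mlxipl, the other factor, correlated with Fasn at 0.33 and with Acaca at 0.31 in the WT-labelled library, and at 0.13 and 0.14 in the KO-labelled library. The WT-labelled values are given with subcluster 3 only, which held 27.3% of the Mlxipl counts, 33.1% of Fasn and 49.9% of Acaca.

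**Figure D5:**
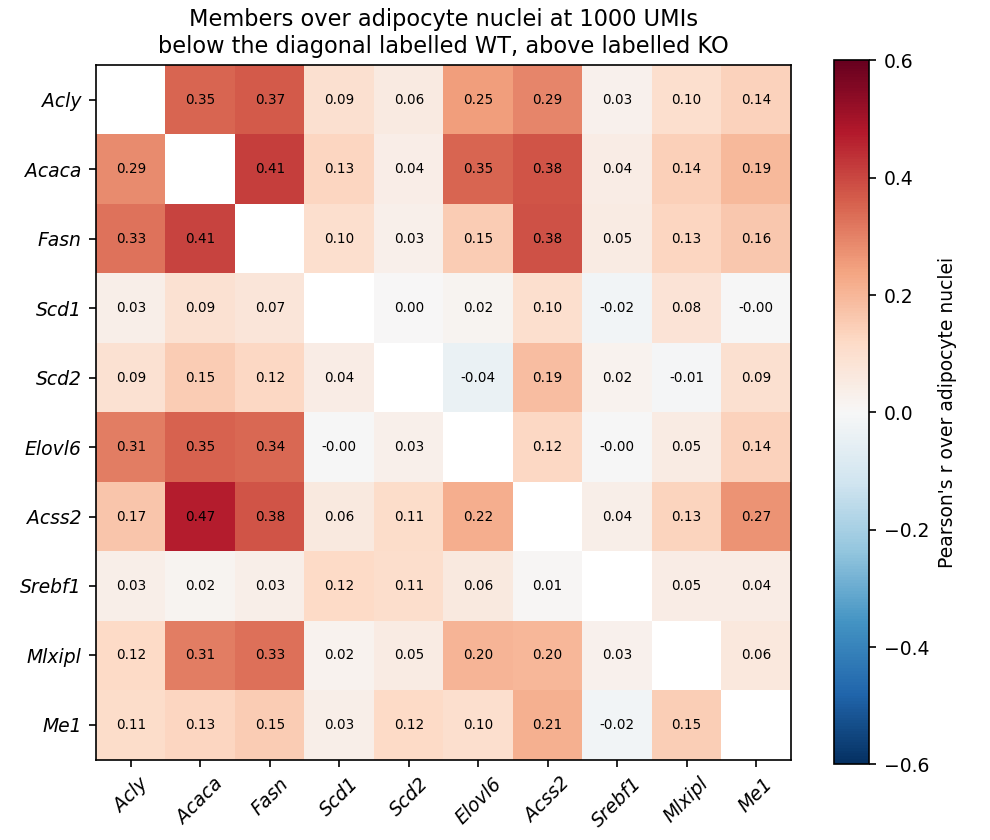
Pearson's correlation of each pair of members over adipocyte nuclei thinned to 1000 UMIs, below the diagonal for the WT-labelled library (n = 408 nuclei) and above it for the KO-labelled library (n = 889 nuclei). The pairs among Acaca, Fasn and Acss2 have the 3 highest values in both libraries, 0.38 to 0.47 in the WT-labelled library and 0.38 to 0.41 in the KO-labelled library, and the pairs of Scd1 and Srebf1 run from -0.02 to 0.13.

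The upper tail was partly set apart by clustering the adipocytes of each library on genes other than the members. In the WT-labelled library, adipocyte subcluster 3 held 27 of the 42 nuclei of the tail, which were 67.5% (50.9 to 81.4) of its 40 nuclei at this depth, while subcluster 2 held 0 among its 70 (an interval of 0 to 5.13%). In these nuclei Acly stood at 957 CPM against 47.9 to 115 CPM in the other 3 subclusters, Elovl6 at 653 against 20.7 to 65.4, Acaca at 2552 against 184 to 387, Acss2 at 2778 against 283 to 574, and Mlxipl at 1959 against 414 to 771. Scd1, at 2093 CPM, lay within the range of 1525 to 2179 CPM of the others. The median depth of this subcluster was 2951 UMIs, against 1752.5 to 5447 in the others, and its 10 adipocyte markers came to 7515 CPM, against 6864 to 10714 CPM. Subcluster 1, which held 10 of the 42 nuclei of the tail, was the most mixed. Its ASPC markers came to 2045 CPM, against 484 to 815 CPM in the other 3 subclusters. Myeloid markers came to 721 CPM there, against 92.0 to 283, and lymphocyte markers to 617 CPM, against 132 to 207. In the KO-labelled library, subcluster 0, which held 375 of the 889 nuclei, had 42 of the 57 nuclei of the tail (11.2% of its nuclei, 8.19 to 14.8). Subcluster 3 had 5 among its 32 nuclei (15.6%, 5.28 to 32.8), and the means of the 2 subclusters were 3.51 and 3.38 UMIs of the 9 members. The 9 endothelial markers came to 1193 CPM in subcluster 3, against 28.9 to 52.0 CPM in the other subclusters of that library, with the 10 adipocyte markers at 10573 CPM. Subcluster 0 had Acly at 125 CPM against 41.5 to 107 and Me1 at 489 against 186 to 308. Its nuclei were also the deepest of that library, with a median of 11185 UMIs against 4125 to 8634 in the others.

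The planned split set nuclei with at least 2 UMIs of the 10 members against those with 0, at 1000 UMIs, and had only 16 and 48 nuclei on its low side. Ranked by the lower of the 2 libraries' ratios, Nabp1, Rsrc2, Git2, Mtus1 and Chchd2 came first, on 1 to 4 counts each in the low nuclei. In the KO-labelled library alone some other genes lay above all of these, among them Abhd5 (5.47) and Acacb (4.64). For Nabp1, the first by the ranking, the ratios were 4.35 (0.763 to 174) and 3.81 (0.656 to 153), which cannot be told from 1 at this depth.

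To see what else the nuclei of the upper tail contained, their full counts were set against those of nuclei with at most 1 UMI of the 9 members (142 nuclei in the WT-labelled library, 401 in the KO-labelled library). The split was chosen after the spread had been seen, uses the 9 members themselves and was not tested. Of 7434 genes, 80 (1.08%) were at least 2-fold higher in the tail in both libraries, and 101 (1.36%) at 0.5 or less. Without subcluster 3 of the WT-labelled library, which left 15 nuclei in the tail there, 74 genes were at least 2-fold higher in both, of which 55 were among the 80. Scd1, which the split did not use, was 1.25 times (1.12 to 1.39) and 1.40 times (1.31 to 1.49) higher.

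The genes that led the tail included neighbours of members and enzymes of nearby pathways. Prune2 stood first, 17.2 times (8.99 to 36.0) and 9.96 times (8.13 to 12.2) higher in the WT- and KO-labelled libraries. Gss, glutathione synthetase, was 14.9 times (8.95 to 26.3) and 9.35 times (7.95 to 11.02) higher and lies 438 bp from Acss2, on the opposite strand. Pgm3, of hexosamine synthesis, was 11.8 times (8.30 to 17.1) and 8.003 times (6.49 to 9.89) higher and lies 9485 bp from Me1, and Dopey1, 25557 bp from Me1, was 5.49 times (4.30 to 7.05) and 4.96 times (4.38 to 5.61) higher. Of 21 genes within 100000 bp of a member that could be compared, only these 3 reached 2-fold in both libraries (14.3%, beside 1.08% of all genes). Pgm3 and Dopey1 lie near the same member. Whether reads of a member were counted for a neighbour was not tested. Angptl8, a fed-state inhibitor of lipoprotein lipase, was 8.58 times (4.23 to 18.8) and 5.26 times (3.33 to 8.28) higher, and Ppp1r3b, which targets a phosphatase to glycogen, 10.0 times (3.91 to 30.3) and 4.90 times (3.23 to 7.42). Without subcluster 3 of the WT-labelled library, the ratios there were 17.7 (8.59 to 39.3) for Prune2, 10.1 (5.35 to 19.4) for Gss, 8.57 (5.55 to 13.3) for Pgm3, 4.28 (1.41 to 12.1) for Angptl8 and 4.48 (0.930 to 18.9) for Ppp1r3b.

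Of the 11 carbon supply and NADPH genes, 11 were above 1 in both libraries, where 36.9% of all 7434 genes were, with medians of 1.84 and 1.55 against 1.14 and 1.03 over all genes, and 2 reached 2-fold in both (1.08% of all genes). These were Slc25a1, the mitochondrial citrate exporter, at 3.01 times (2.05 to 4.42) and 2.35 times (1.64 to 3.33), and G6pdx, which makes NADPH in the pentose phosphate pathway, at 3.30 times (2.10 to 5.20) and 2.18 times (1.62 to 2.90). Acacb was 7.11 times (4.80 to 10.7) and 3.36 times (3.03 to 3.72) higher. With subcluster 3 left out, the ratios in the WT-labelled library were 3.63 (2.00 to 6.42) for Acacb, 2.40 (1.36 to 4.06) for Slc25a1 and 2.58 (1.32 to 4.80) for G6pdx. Insig1 was 2.49 times (2.03 to 3.06) and 2.89 times (2.52 to 3.32) higher and comes from the list of regulators, of which 3 of the 11 that could be compared were above 1 in both libraries, with medians of 0.915 and 1.00. At 2-fold in both libraries, 0 of 10 triglyceride synthesis genes and 0 of 8 lipolysis genes stood beside the 1.08% of all genes. Above 1 in both libraries were 7 of the 10 triglyceride synthesis genes (medians 1.49 and 1.17) and 2 of the 8 lipolysis genes (medians 0.994 and 0.903), beside the 36.9% of all genes. G0s2 was at 0.545 (0.485 to 0.611) and 0.645 (0.595 to 0.698).

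Of the genes lower in the tail, Nnat, an imprinted gene encoding neuronatin, stood at 0.119 (0.0893 to 0.155) and 0.0765 (0.0677 to 0.0861), the former 0.259 (0.193 to 0.342) without subcluster 3, on 1347 and 20314 counts in the nuclei with few member UMIs. Adipoq was at 0.745 (0.545 to 1.00) and 0.621 (0.520 to 0.737), the former 0.969 (0.642 to 1.42) without it. The nuclei of the tail and those with few member UMIs had median depths of 3718 and 3749.5 UMIs in the WT-labelled library and 8652 and 7160 in the KO-labelled library.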

How the data were processed

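The deposited files are matrices of unnormalized UMI counts from the 10x Genomics platform, made by the authors with Cell Ranger, whose version is 6.1.1 per the file headers, with mm10 named in the submitters' processing notes. The members and lists were chosen with earlier results of these data known, and the rule that turns markers into names was written with the data in view. Barcodes with at least 500 genes and at most 5% mitochondrial UMIs were kept (3649 and 2944). Scrublet in scanpy 1.11.5 removed 146 nuclei as the top 4% of the WT-labelled library, where its automatic threshold marked 0, and 92 of the KO-labelled library. Merged libraries were clustered in Seurat 5.3.0 (R 4.3.3, 1993 variable genes after 7 members were taken out, 20 components, resolution 0.5). A cluster was named when at least 3 markers of a list stood at 2-fold in 5% of nuclei, with a lead of 3 over the next list. Counts were summed per class and library and scaled to totals, or by TMM in edgeR 4.0.16. Intervals are exact Poisson, Clopper-Pearson or conditional binomial (scipy 1.17.1). For a difference, the distances from each library's value to its exact limit were combined as the root of summed squares. Intronic lengths came from GENCODE vM1. Genes named beside the members were, by rule, at most 4 per list, those with most adipocyte UMIs. Added by rule were the 5 genes with the largest ratio between nuclei with at least 2 and with 0 member UMIs. This ranking used the lower of the 2 libraries' ratios. Genes named from the upper tail, Adipoq, Slc25a1, G6pdx and G0s2 included, were chosen after their values were seen. Scripts were tested on simulated counts.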

Additional observations from a re-analysis of the deposited data

Results flagged for a closer look

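Scd1 and Me1 differed between the libraries in opposite directions in adipocytes and in some other classes, with counting intervals on either side of 1, and the difference between classes was not tested. The Scd1 ratio, the KO-labelled library over the WT-labelled library, was 0.751 in adipocytes and 1.42 in ASPCs, 1.34 in myeloid nuclei, 1.31 in lymphocytes and 2.13 in endothelial nuclei. Beside these stand the Scd1 levels of barcodes with fewer than 500 genes, 1264 CPM in the WT-labelled library and 5544 CPM in the KO-labelled library. The 10 adipocyte markers came to 747 and 2755 CPM in endothelial nuclei of the WT- and KO-labelled libraries. They came to 538 and 1273 CPM in myeloid nuclei, 611 and 1404 CPM in lymphocytes, and 697 and 698 CPM in ASPCs. Whether adipocyte transcripts account for the Scd1 ratios of these classes was not tested. The Me1 ratio was 1.91 in adipocytes and 0.605 in myeloid nuclei, 0.306 in lymphocytes and 0.288 in endothelial nuclei, while in ASPCs it was 1.17 (0.852 to 1.63). Read against genes of like intronic length, the adipocyte log2 ratios of Scd1 and Me1 were 0.03 and 0.01, so that the adipocyte side of both contrasts was near 0 on that reading. The lymphocyte and endothelial Me1 values rest on 7 and 8 counts in the KO-labelled library. Except in endothelial nuclei, which form cluster 10 in both libraries, different clusters hold most of these classes in the 2 libraries: ASPCs lie in cluster 8 against clusters 5 and 6, myeloid nuclei in cluster 7 against 3 and 9, and lymphocytes in clusters 0 and 2 against 14 and 17.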

How the results depend on the processing

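No paired analysis was possible because each genotype has 1 library and the labels give no shared replicate number. For the same reason no library could be left out, and no value above separates genotype from library. Of 78 alternative values of the main results, 61 stayed within 1.5 times the reported count or within the counting interval. Of 141 alternative values of the log2 ratios of single members and the median of all genes, 92 stayed, 44 moved and 5 changed direction. The count of members at or below a ratio of 0.5, 2 as reported, was 1 under TMM scaling, 6 with totals without mitochondrial genes and Malat1, 5 with the correction for intronic length, 4 with at least 1000 genes per nucleus, 1 with each library clustered on its own and 5 with lymphocyte UMIs per nucleus subtracted. The count at or above 2, 0 as reported, was 1 under TMM scaling and 1 with lymphocyte UMIs subtracted. Of all genes, 17.6% lay at or below 0.5 as reported, 9.73% under TMM scaling and 12% with the correction for intronic length. The share of all genes was not counted under the other settings of this section. With totals without mitochondrial genes and Malat1 the median of all genes also fell, to -0.26, so the count of 6 cannot be read as particular to the members. The member median of -0.89 became -0.59 under TMM scaling and -1.14 with totals without mitochondrial genes and Malat1. The correction for intronic length reversed Acaca, from 0.37 to -1.71, and Scd1, from -0.41 to 0.028. The difference in mean member UMIs, -1.15, became -1.79 with at least 1000 genes per nucleus and -0.80 without Scd1, a setting added after the data were seen. Without subcluster 3 of the WT-labelled adipocytes, added later, the counts at or below 0.5 and at or above 2 were 1 and 2, the member median was -0.10, Acly, Elovl6 and Acss2 reversed to 0.25, 0.38 and 0.19, and the difference in mean member UMIs was -0.21. Without subcluster 3 of the KO-labelled adipocytes the count at or below 0.5 was 1. With the tail taken from 10 UMIs, also added later, 95 genes reached 2-fold in both libraries, of which 63 were among the 80. Over thinning depths of 500 and 2000 UMIs and another seed, and over filters and clusterings, 37 to 45 of 45 pairs in the WT-labelled library and 37 to 43 in the KO-labelled library were higher together. With at least 1000 genes per nucleus, both other clusterings and no doublets removed, 10 of 10 members were higher in adipocytes in both libraries. Subcluster 3 of the WT-labelled library held 66.0% of the Elovl6 counts, 60.1% of Acly and 38.9% of Acss2. The cause of the other shifts was not tested.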
